A study of Homo sapiens with 12 samples.

Results

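KISS1 was the gene with one of the largest gains in ribosome footprints when IMR90 fibroblasts became senescent, and it is described here together with its receptor, KISS1R. The pair make 2 of the 38716 gene symbols in the read tables, of which 16451 had at least 1 read in a coding sequence (CDS) in some library. KISS1 was chosen by its gain in RPF (ribosome-protected fragments) from proliferating to senescent cells in these same libraries, so its mRNA, RPF and efficiency values and its ranks are a description and carry no test. The working description of KISS1 as the strongest gain needs a qualification, because it ranked 2 of 7521 genes by fold change, after WNT16.

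IMR90 is a line of primary human fetal lung fibroblasts. It was studied while proliferating (Pro) and after long passaging into replicative senescence (Sen), in MEM with 10% serum, and no allele, transgene or drug is given in the labels for either state. There were 3 lysates per state. A Ribo-seq library, of the mRNA pieces that bound ribosomes shield from RNase, and an RNA-seq library were made from each, 12 in all. The labels name 2 isolates of the line without assigning them to samples, and the RNA-seq tables of Pro carry a tag that resembles the solvent DMSO, so neither an effect of isolate nor of such a solvent can be told apart from that of state. In cell populations such as these, fewer expressing cells and less RNA per cell cannot be told apart.

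The Ribo-seq libraries differed widely in depth, from 54420 to 1718521 CDS reads. Pro lysate 1 (54420) and Sen lysate 2 (54708) were the shallow ones, and the other 4 held at least 583798. The share of the assigned reads that fell in a CDS was also lowest in these 2 libraries, at 34.4% and 15.0%, against 54.7% to 88.8% in the others. RNA-seq libraries held from 7902427 to 14144455 reads over all regions of mRNAs. A count of 3 reads, taken as the limit of what a library resolves, stands for 50.5 and 51.2 counts per 1000000 reads scaled to library size (CPM) in the 2 shallow Ribo-seq libraries and for at most 5.66 CPM in the other 4. Fibroblast markers were high in every library, with summed mRNA levels of the 10-gene list from 30116 to 35635 CPM. Marker lists of epithelial, endothelial, leukocyte, trophoblast and melanocyte cells each summed to at most 21.2 CPM in mRNA. CDKN1A, CDKN2A and CDKN2B mRNAs were higher in Sen, while LMNB1, HMGB2 and MKI67 were lower, as the labels imply.

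KISS1 encodes a secreted precursor that is cut into kisspeptins, short peptides that end in an amidated Arg-Phe and so belong to the RFamide family. KISS1R, a receptor coupled to Gq proteins, answers to these peptides by activating phospholipase C, which raises calcium and activates protein kinase C and MAP kinases. Kisspeptin is best known for driving the neurons that release gonadotropin-releasing hormone at puberty, for its abundance in the placenta, and for the suppression of metastasis, in which the gene was first studied.

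In the GENCODE v44 annotation lifted to GRCh37, KISS1 lies on chromosome 1 from 204159469 to 204165619 on the minus strand. Its main transcript has 3 exons and 714 bases, of which 154 are 5′ UTR, 417 CDS with the stop codon, and 143 3′ UTR, and the precursor has 138 residues. Stretches of 30 bases are shown because the results concern where reads fell around the start codon, what the footprinted CDS encodes and what stands before the gene. In the start codon stretch (bases 140 to 169 of the transcript) the ATG is in capitals. In the stretch over the end of the kisspeptin sequence (bases 488 to 517) the capitals are the codons of the Arg-Phe that ends the peptide, at residue 121. In the promoter stretch (GRCh38.p14, chr1:204196503-204196532, minus strand, from RefSeq) the capitals are a TATA box.
KISS1 start codon: cctcttctcaccaagATGaactcactggtt
KISS1 kisspeptin end: tacaactggaactccttcggcctgCGCTTC
KISS1 promoter: caccccgggcttTATAAAagggatgtgatc

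No other ATG stands in the 154 bases of the 5′ UTR. In the RefSeq promoter window, from 250 bases before the start of transcription to 50 after it, TATAAA was found at -29 on the sense strand, and 11.53% of 35116 promoters of the same length hold it on either strand. The same box read on the antisense strand gives a second match at -31, which overlaps the first. GGGCGG, the core of the GC box that SP1 binds, was found once, at -73, as in 44.95% of promoters. TGACGT, part of the cAMP response element, was found on the antisense strand at -45, as in 7.98% of promoters. TGACTCA, the AP-1 site, has no match in this window (4.95% of promoters have one). These matches describe the letters of the window and say nothing of binding.

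KISS1 mRNA was low in every Pro library and high in every Sen library. RNA-seq reads of KISS1 numbered 56, 85 and 82 in Pro lysates 1 to 3 and 2837, 3511 and 2712 in Sen lysates 1 to 3. Scaled to library size, these were 6.83, 7.26 and 7.63 CPM in Pro and 302, 257 and 248 CPM in Sen. The 3 Pro values lay within 1 CPM of each other, and the lowest Sen value was far above all of them. The mean rose from 7.24 ± 0.40 to 269 ± 28.8 CPM (SD, n = 3 each), a log2 fold change of 5.21 ± 0.11 (SE), or 36.9-fold.

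Ribosome-protected fragments (RPF), counted as CDS reads in Ribo-seq, showed the same order. Pro lysates 1 to 3 held 0, 7 and 20 such reads of KISS1, and Sen lysates 1 to 3 held 899, 24 and 334. These were 0, 10.1 and 11.6 CPM in Pro and 584, 409 and 630 CPM in Sen. The small count of Sen lysate 2 came from a library with 54708 CDS reads, and on the CPM scale it stood with the other Sen libraries. The groups did not overlap, and even the floor of 50.5 CPM in Pro lysate 1, where no KISS1 read was seen, lay below every Sen value. The mean was 7.22 ± 6.29 CPM in Pro and 541 ± 116 CPM in Sen, a log2 fold change of 5.73 ± 0.25 (SE). On the linear scale this is 52.9-fold, with 44.6 to 62.8 as the range of 1 SE on each side. Without the shallow lysates Pro 1 and Sen 2, the log2 fold change was 5.75 ± 0.20.

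**Figure D1:**
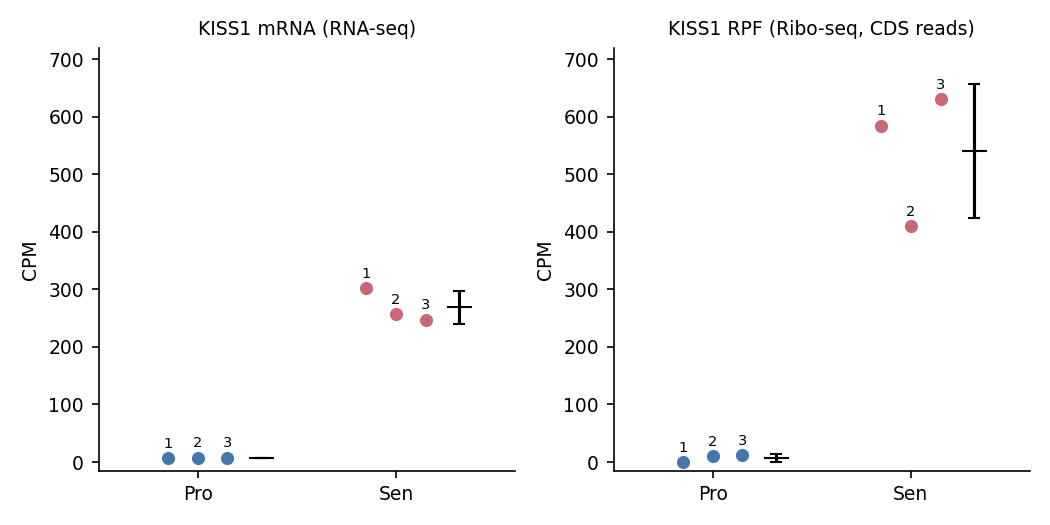
KISS1 level in CPM (vertical axes) in each library of proliferating (Pro) and senescent (Sen) cells, mRNA on the left and RPF on the right. Points are libraries with the lysate number above them, and bars give the mean ± SD of 3. The Sen mRNA values sit between 248 and 302 CPM and the Sen RPF values between 409 and 630 CPM, while no Pro value passes 11.6 CPM.

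KISS1 took a measurable part of all translation in senescent cells. In Sen lysate 1 its footprints were 0.0537% of all CDS reads (Wilson 95% interval 0.0503 to 0.0574%), which is 1 read in 1861. Sen lysate 2 gave 0.0439% (0.0295 to 0.0653%) and Sen lysate 3 gave 0.0572% (0.0514 to 0.0637%), 1 read in 2280 and in 1748. The 3 intervals overlap. They cover counting error only, leave out the spread between lysates, and are too narrow where PCR copies are not independent. In Pro the share was 0.00102% (0.000495 to 0.00211%) in lysate 2 and 0.00116% (0.000753 to 0.0018%) in lysate 3. Pro lysate 1 had no KISS1 footprint, and a count of 0 at its depth allows up to 55.1 reads per 1000000 (RPM). Pooled over lysates, KISS1 had 11.0 RPM of CDS reads in Pro and 544 RPM in Sen.

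Ranks placed this level near the top of the senescent translatome. Per kb of coding length, KISS1 ranked 101, 123 and 95 of 15820 genes by Ribo-seq CDS reads in Sen lysates 1 to 3, which is the top 0.638%, 0.777% and 0.601%. In Pro lysates 2 and 3 it ranked 4675 and 4295. By the mean over the Sen libraries it was at rank 109 for footprints per kb and at rank 360 for RNA-seq CDS reads per kb, so its place was higher among footprints than among mRNAs. By absolute gain in mean CPM it ranked 63 of 7521 genes in RPF and 117 of 12787 in mRNA.

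By fold change the order was different. KISS1 ranked 25 of 12787 genes tested in mRNA, and 5 of the 7836 whose RPF counts averaged 10 or more. In RPF it ranked 2 of 7521, and also 2 of the 7426 with such an average. An RPF log2 fold change of at least 5 was reached by 3 genes, or 0.0399% of those tested, and in mRNA by 26, or 0.203%. Since KISS1 was chosen for its place in this order, these ranks are no more than a description. For comparison, 54.4% of genes tested passed the threshold (adjusted p-value under 0.15) in RPF, 27.5% upwards and 26.9% downwards. In mRNA 73.6% did, 36.6% upwards and 37% downwards. The Sen libraries stood wholly above the Pro libraries for 16.8% of genes in RPF and 33.5% in mRNA, and the states did not overlap in either direction for 32.5% and 67.8%.

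WNT16, a secreted Wnt ligand, was the gene above KISS1 in RPF. It had 0, 0 and 3 CDS footprints in Pro and 125, 6 and 36 in Sen, and its log2 fold change was 5.84 ± 0.47. The difference of 0.11 from KISS1 is smaller than either standard error, so the first and the second place cannot be separated. WNT16 reached 83.8 ± 17.4 CPM in Sen, so its fold change rests on far fewer reads than that of KISS1.

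The 5 genes below KISS1 were INMT (5.00 ± 0.52), a methyltransferase, CLSTN2 (4.89 ± 0.61), a calsyntenin of synaptic membranes, ANKRD1 (4.79 ± 0.24), a muscle ankyrin repeat protein, TMEM178B (4.34 ± 0.58) and CLDN1 (4.32 ± 0.24), a tight junction protein. ANKRD1 and CLDN1 had standard errors like that of KISS1. INMT had no footprint in Sen lysate 2 and rested on 4 reads in Pro. In mRNA, CLSTN2 (7.40 ± 0.23), WNT16 (6.08 ± 0.15) and TMEM178B (5.35 ± 0.11) had larger log2 fold changes than KISS1.

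**Figure D2:**
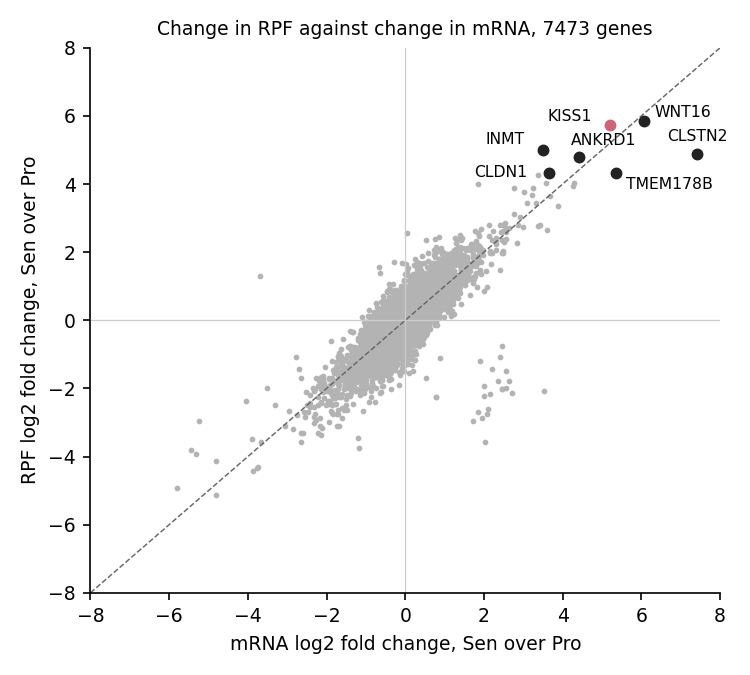
RPF log2 fold change (vertical axis) against mRNA log2 fold change (horizontal axis), Sen over Pro, for the 7473 genes tested in both. Grey points are genes, the dashed line marks equal change, KISS1 is red and the 6 genes next to it in the RPF order are black. KISS1 (5.21 in mRNA, 5.73 in RPF) sits slightly above the line, near the upper right end of the cloud.

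The profile of KISS1 over all 12 libraries was closest to that of ANKRD1. The measure was the root mean square difference between log2 CPM values centred within each library type, and it was 0.81 for ANKRD1. Next came EDN1 (0.88), the precursor of the vasoconstrictor endothelin-1, CCND2 (0.92), a D-type cyclin, WNT16 (0.93), and GDF6 (0.95), a bone morphogenetic protein. As the measure matched genes to KISS1, which rose in both layers, a large rise in both is built into this choice. The mRNA log2 fold changes of these 5 genes ran from 3.25 for GDF6 to 6.08 for WNT16. Among them CCND2 also passed the threshold for efficiency, with a log2 change of 0.88 ± 0.25 (edgeR, adjusted p = 0.037), although it did not in fits that left out 1 of lysates Pro 2, Pro 3 or Sen 3.

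Translational efficiency (TE) is the ratio of footprints to mRNA in a lysate. For KISS1 the ratio of RPF CPM to mRNA CPM was 0, 1.39 and 1.52 in Pro lysates 1 to 3 and 1.94, 1.59 and 2.54 in Sen lysates 1 to 3. On the log2 scale, with 0.5 added to each count, it was 0.29, 0.56 and 0.63 in Pro and 0.95, 0.70 and 1.35 in Sen. The value of Pro lysate 1 is set by the added 0.5, as that library had no KISS1 footprint. The highest Pro value, 0.63, and the lowest Sen value, 0.70, were closer to each other than 1 SD of either group (0.49 ± 0.18 and 1.001 ± 0.33, SD, n = 3 each).

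The modelled TE change of KISS1 was 0.56 ± 0.35 (SE) on the log2 scale, 1.48-fold with 1.16 to 1.89 as the range of 1 SE on each side. It ranked 609 of 7473 genes, against 2 for its RPF change. Of all genes tested, 9.37% passed the threshold for TE, 4.88% upwards and 4.48% downwards, and for 16.2% the TE values of the 2 states did not overlap. The rise in KISS1 mRNA, of 5.21, is thus much larger than the rise in its footprints per mRNA.

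The efficiency of KISS1 was above that of the median gene in the 5 lysates with a KISS1 footprint. When mRNA was counted over CDS reads alone, which puts both libraries on the same region, log2 TE of KISS1 was 1.15, 1.04 and 1.39 in Pro and 1.29, 1.55 and 1.74 in Sen. The median of 7786 genes lay between -0.06 and 0.16 in the same lysates. KISS1 stood at percentiles 83.9, 91.7 and 97.6 in Pro and 97.1, 91.7 and 98.8 in Sen. The values of Pro lysate 1 rest on 0 footprints and the added 0.5, so they cannot be read as a level. On this scale the groups overlapped, with Pro lysate 3 above Sen lysate 1. The modelled TE change then was 0.36 ± 0.39.

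**Figure D3:**
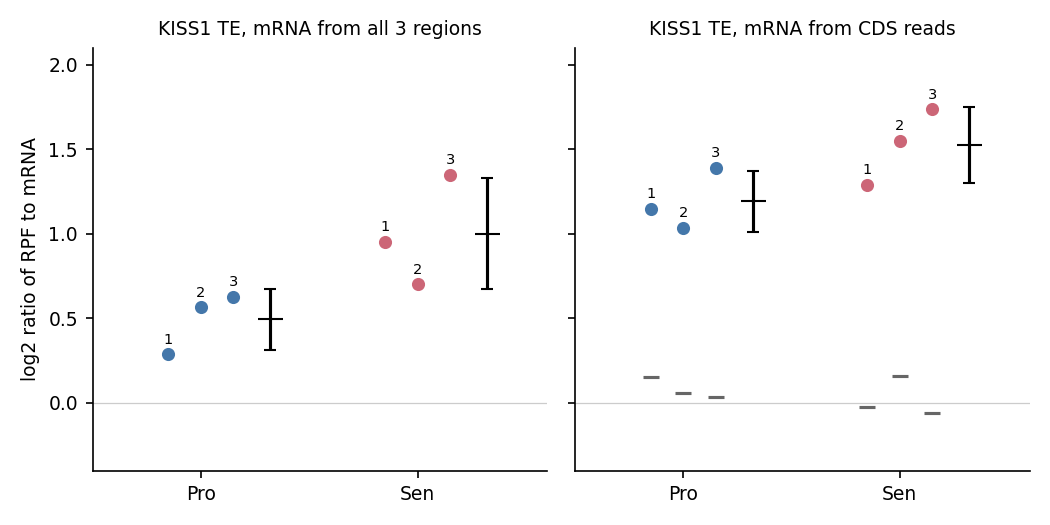
Log2 ratio of KISS1 footprints to KISS1 mRNA (vertical axis) in each lysate, with mRNA counted over all regions on the left and over CDS reads on the right. Points are lysates with their number, black bars give the mean ± SD of 3, and grey dashes on the right give the median gene of that lysate. Pro lysate 1 had no footprint, so its point is set by the added 0.5. KISS1 sits above the median gene in the other 5 lysates, and Sen lysate 1 (1.29) is below Pro lysate 3 (1.39) on the right.

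The regions of the KISS1 transcript were covered very unevenly. In RNA-seq, 62.5%, 54.1% and 64.6% of KISS1 reads fell in the 5′ UTR in Pro lysates 1 to 3, and 51.6%, 61.9% and 55.2% did in Sen lysates 1 to 3. The ranges of the states overlapped. Over all RNA-seq libraries the share was 56.8%, although the 5′ UTR is 21.6% of the GENCODE transcript. That is 34.2 reads per base of 5′ UTR and 9.63 per base of CDS, a ratio of 3.55. The lengths are those of GENCODE, and the annotation used for counting is not given. The ratio therefore holds only if the region boundaries are the same in both. Among 8267 genes with at least 1000 RNA-seq reads, KISS1 ranked 47 by this share, and the median gene had 6.60%.

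The 3′ UTR showed the opposite. None of 9283 RNA-seq reads of KISS1 was assigned there, which allows a share of up to 0.0323%. The 3′ UTR makes 20.03% of the GENCODE transcript, whose boundaries may differ from those used for counting. A share of 0 was also found for 231 of the 8267 genes, or 2.79%, and the median gene had 24.1% of its reads there. The tables do hold a KISS1 3′ UTR, since 2 Ribo-seq reads of Sen lysate 1 and 1 of Sen lysate 3 were assigned to it. GC content was 62.3% in the 5′ UTR, 67.4% in the CDS and 64.3% in the 3′ UTR.

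In Ribo-seq nearly all KISS1 reads were in the CDS. In Sen lysate 1, 899 of 926 reads were in the CDS and 25 in the 5′ UTR, a 5′ UTR share of 2.70% (Wilson 95% interval 1.84 to 3.96%). Sen lysate 3 had 334 in the CDS, 1 in the 3′ UTR and 0 in the 5′ UTR, which allows up to 0.896%, although 13.8% of that whole library was in 5′ UTRs. Sen lysate 2 had 24 reads, all in the CDS, in a library with 44.7% of its reads in 5′ UTRs. In Pro, 4 of 31 reads were in the 5′ UTR. The 5′ UTR as a whole thus carried most RNA-seq reads of KISS1 and few of its footprints in the Sen lysates. No KISS1 read was assigned to any non-coding class in any library.

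**Figure D4:**
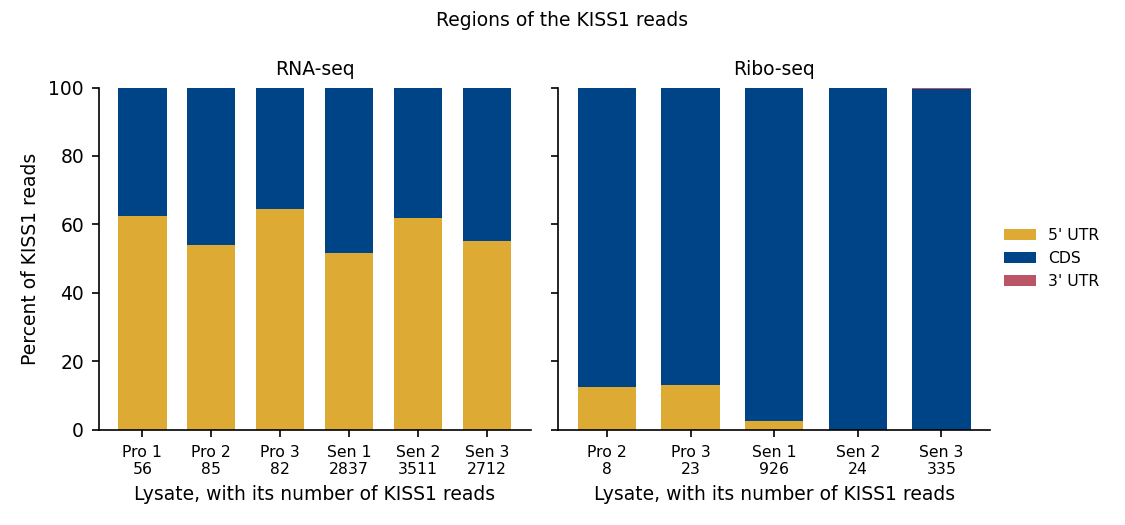
Percent of KISS1 reads (vertical axis) in the 5′ UTR, CDS and 3′ UTR in each lysate, RNA-seq on the left and Ribo-seq on the right, with the number of reads under each bar. Pro lysate 1 had no Ribo-seq read of KISS1 and is left out on the right. The 5′ UTR holds 51.6% to 64.6% of RNA-seq reads and 0 to 2.70% of Ribo-seq reads in Sen.

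KISS1R, on chromosome 19 from 917287 to 921005 on the plus strand (GRCh37), was near the limit of detection in both states. It had no read in any region in the 6 Ribo-seq libraries, which in the deepest allows up to 1.75 RPM. In RNA-seq it had 1 read in Pro lysate 3, 3 in Sen lysate 2 and 0 in the other 4, where a count of 0 allows from 0.265 to 0.380 RPM. No change of the receptor was detectable at this depth, and it entered no test. The other precursors and receptors of the RFamide family (NPFF, NPFFR1, NPFFR2, NPVF, QRFP, QRFPR, PRLH and PRLHR) had at most 6 RNA-seq reads in any library and no footprint. Of the 10 genes in that list, KISS1 alone was abundant enough to be tested.

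Among peptide hormone precursors, KISS1 had the most footprints per kb in Sen. Over 45 such genes with a CDS read, it went from rank 5 in Pro, at 17.6 ± 15.3 RPM per kb, to rank 1 in Sen, at 1247 ± 167 (SD, n = 3). STC2, a stanniocalcin, followed in Sen at 679 ± 23.2 and ADM, the precursor of the vasodilator adrenomedullin, at 607 ± 25.9. Both were already high in Pro, at 556 ± 114 and 477 ± 218. In RNA-seq CDS reads per kb KISS1 was second in Sen, at 438 ± 83.3 against 454 ± 17.7 for STC2, a difference within the spread of KISS1.

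**Figure D5:**
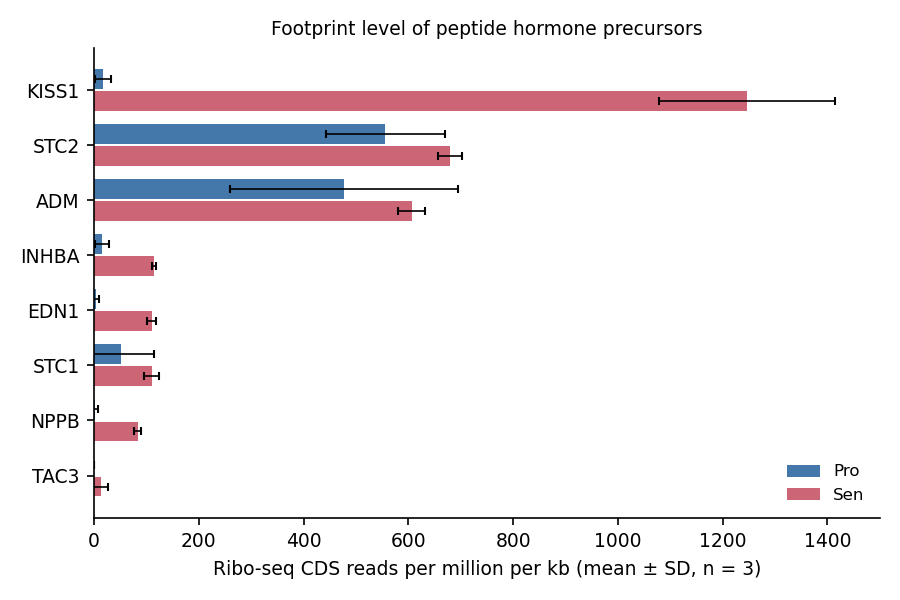
Ribo-seq CDS reads in RPM per kb of coding length (horizontal axis, linear) for the 8 peptide hormone precursors with the highest level in Sen. Bars are means and lines the SD of 3 libraries, blue for Pro and red for Sen. KISS1 reaches 1247 in Sen from 17.6 in Pro, while STC2 and ADM are high in both states.

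Of the 64 other peptide precursors listed, 15 were abundant enough to be tested in mRNA and 6 in RPF, and all 6 rose in RPF (27.5% of all genes tested did). The median RPF log2 fold change of these 6 was 2.58, against 0.00 for all genes. Genes with few reads in Pro, such as NPPB and EDN1, pass the filter on low counts through Sen alone, so this count and median are only a description. NPPB, the precursor of the natriuretic peptide BNP, rose by 4.03 ± 0.50 and EDN1 by 3.95 ± 0.37. STC1 (2.71 ± 0.31), INHBA, an activin subunit (2.46 ± 0.22), ADM (0.80 ± 0.17) and STC2 (0.29 ± 0.16) followed. The adjusted p of STC2 was 0.144, close to the threshold, and its call was lost in 9 of 13 other settings, among them the omission of any lysate other than Sen 2. In mRNA 8 of the 15 were higher and 5 lower.

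TAC3 encodes neurokinin B, which is made together with kisspeptin in neurons of the hypothalamus. It was the only one of 9 genes of the reproductive axis abundant enough to be tested, and only in mRNA. Its reads numbered 5, 10 and 8 in Pro and 111, 138 and 93 in Sen, a log2 fold change of 3.73 ± 0.23 (SE). It passes the filter on low counts through Sen alone and was named after its values had been seen, so this is a description. In Ribo-seq TAC3 had no CDS read in Pro and 6, 0 and 6 in Sen, too few for a test. GNRH1 and GNRHR, the hormone and the receptor that act downstream of kisspeptin, had at most 11.5 RNA-seq reads in a library.

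Enzymes that cut and finish peptide precursors were called in both directions, as genes in general were. Over all genes tested, 36.6% were higher and 37% lower in mRNA, and 27.5% and 26.9% in RPF. Of the 16 enzymes tested in mRNA 8 were higher and 4 lower, and of 10 tested in RPF 5 were higher and 2 lower, with a median RPF log2 fold change of 0.44 against 0.00 for all genes. FURIN, a protease of the secretory pathway that cuts after basic residues, rose by 1.37 ± 0.28 in RPF. PCSK5, of the same family, rose by 1.93 ± 0.44, and PAM, which puts the amide on the ends of peptides such as kisspeptin, by 1.21 ± 0.16. MBTPS1 (0.54 ± 0.26) and the membrane metalloprotease MMP14 (0.58 ± 0.16) rose too. CPE, which trims basic residues, and MMP2, a gelatinase, had RPF changes of -0.78 ± 0.35 and -0.54 ± 0.16. PCSK7 rose by 1.23 ± 0.07 in mRNA but not in RPF (0.19 ± 0.36), and was the one member called in TE, at -1.09 ± 0.36 (edgeR, adjusted p = 0.081). That call was lost in 6 of the 12 other settings that gave an adjusted p, and leaving out any of lysates Pro 2, Pro 3, Sen 1 and Sen 3 was enough. Without 1 lysate the RPF calls of MBTPS1 (Pro 3, Sen 1 or Sen 3), CPE (the same) and MMP2 (Pro 3) were lost too.

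Of 18 genes through which receptors coupled to Gq signal, 16 were abundant enough to be tested in mRNA and 13 in RPF. Of the 16 tested in mRNA 7 were higher and 4 lower, against 36.6% and 37% of all genes. Of the 13 tested in RPF 6 were higher and 3 lower, against 27.5% and 26.9%, with a median RPF change of 0.52. In RPF the phospholipase PLCB4 rose by 1.66 ± 0.19 and PLCB3 by 0.86 ± 0.26, while PLCB1 changed by -1.75 ± 0.40. The kinases PRKCE (2.39 ± 0.37), PRKCD (0.93 ± 0.31) and MAPK3 (0.65 ± 0.25) and the G protein subunit GNA11 (0.91 ± 0.21) were higher. PRKCA (-0.44 ± 0.19) was lower. In TE, PLCB3 was higher (0.85 ± 0.28, edgeR, adjusted p = 0.0711), and it lost this call when any of lysates Pro 2, Pro 3, Sen 1 and Sen 3 was left out. The RPF calls of PRKCA (Pro 2, Sen 1 or Sen 3) and MAPK3 (Sen 1) were lost without the lysates given.

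Factors that have been reported to control KISS1 transcription were called in mRNA about as often as other genes. Of 13 tested in mRNA 5 were higher and 5 lower, against 36.6% and 37% of all genes. Of 9 tested in RPF 4 were higher and 4 lower, against 27.5% and 26.9%, and none was called in TE. SP1, which binds GC boxes such as the one at -73, was lower in RPF (-0.93 ± 0.24), and so were its relative SP3 (-0.997 ± 0.27), the mediator subunit MED23 (-0.69 ± 0.23) and EED, of Polycomb complex PRC2 (-0.92 ± 0.35). TXNIP (1.63 ± 0.17), YY1 (0.48 ± 0.21) and IRF2BPL (0.39 ± 0.18) were higher. Without Sen 1 the calls of MED23, EED, YY1 and IRF2BPL were lost, without Pro 2 those of YY1 and IRF2BPL, and without Pro 3 those of MED23 and IRF2BPL.

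KISS1 was named among the metastasis suppressors, and other genes of that group were examined too. Of 14 tested in mRNA 6 were higher and 6 lower, against 36.6% and 37% of all genes. Of 12 tested in RPF 7 were higher and 2 lower, against 27.5% and 26.9%, with a median RPF change of 0.72. CD82, a tetraspanin, rose by 1.71 ± 0.18, and RECK (0.92 ± 0.18), an inhibitor of metalloproteases, BRMS1 (0.74 ± 0.27), NDRG1 (0.74 ± 0.19), MAP2K7 (0.72 ± 0.30), PEBP1 (0.71 ± 0.16) and TXNIP were also higher in RPF. AKAP12 (-0.81 ± 0.17) and MED23 were lower. CD82 (0.69 ± 0.19, edgeR, adjusted p = 0.0262) and BRMS1 (0.86 ± 0.27, edgeR, adjusted p = 0.0601) passed in TE. The CD82 call was lost without any one of lysates Pro 2, Pro 3 and Sen 3, and that of BRMS1 without Pro 3 or Sen 1. The same omissions removed the RPF call of BRMS1, and that of MAP2K7 was lost without Pro 2 or Sen 3.

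The rise at this place on chromosome 1 was larger in KISS1 than in the neighbouring genes named here. Of the 5 annotated genes on each side, 6 had a row in the tables. GOLT1A, 1672 bases away, had at most 4 reads in any RNA-seq library. The mRNA of ETNK2, an ethanolamine kinase, rose by 1.17 ± 0.10 and that of PLEKHA6 by 1.182 ± 0.09, and PLEKHA6 rose by 1.64 ± 0.28 in RPF. The non-coding ERLNC1 and LINC00628 had no CDS read and entered no test. The next coding genes outwards, picked after the values of the others had been seen, were SOX13, at 0.16 ± 0.16 in mRNA and not past the threshold, and PPP1R15B, lower by -0.27 ± 0.08 in mRNA and by -0.95 ± 0.27 in RPF, a call that was lost without Sen 1.

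Markers of the placenta, another tissue rich in kisspeptin, were low but not absent. Over 6 trophoblast markers the summed mRNA level was 6.46 to 7.44 CPM in Pro and 12.9 to 17.0 CPM in Sen, and most of the rise was in PSG1. This pregnancy-specific glycoprotein had 9, 12 and 10 reads in Pro and 97, 142 and 91 in Sen, a log2 fold change of 3.25 ± 0.21 (SE), which is a description because PSG1 was named after its values had been seen. Since it belongs to a family of near-identical genes its reads may be shared with them. PAPPA2, a protease of the placenta, stood at 5.57 ± 0.75 CPM in Pro and 5.07 ± 0.98 CPM in Sen (SD, n = 3). CGA had 0 or 1 read in each RNA-seq library. Whether these markers have a part in the KISS1 values was not tested.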

How the data were processed

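KISS1, KISS1R and the gene lists were chosen with earlier results of these data known. Ribo-seq and RNA-seq reads were counted by the authors per gene symbol and region, and the deposited values are expected counts without scaling to depth. Between 12.1% and 22.7% of nonzero CDS values in Ribo-seq were not whole, and values were rounded after regions had been summed, although plain counts had been assumed. The submitters' processing notes name cutadapt 1.18, Bowtie 1.0.1, SAMtools 1.8 and DESeq2 1.22.2. The genome build, annotation, strand rule and treatment of reads with several placements are not given in the sources used here, and reads of overlapping genes may be shared.

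RPF were CDS reads in Ribo-seq, and mRNA was the sum over UTRs and CDS in RNA-seq. Genes kept by filterByExpr were tested with the two-sided quasi-likelihood test of edgeR 4.0.16 (R 4.3.3) with TMM factors set separately for Ribo-seq and RNA-seq. Changes in mRNA and RPF were tested on 6 libraries each. The TE test used all 12, with lysate as a block and a term for a state effect specific to Ribo-seq. p-values were adjusted by Benjamini-Hochberg over all genes tested, with a threshold of 0.15, the false discovery rate of the published methods. They measure the spread among replicas that the labels call independent. SE was derived from the coefficient and its F statistic. The procedure was tested on simulated counts with changes of known size, which does not measure its error rate in these data. Shares carry Wilson 95% intervals, and a count of 0 was given a limit of 3 counts. Alternatives were RLE factors, library totals, a filter of at least 1 read, DESeq2 1.42.0, other regions, a block and leaving out lysates.

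As the protocol splits each lysate for both assays, its 2 libraries were paired. Between Pro and Sen, deviations of same-numbered libraries had correlations from 0.027 to 0.048 in RPF and from -0.061 to 0.074 in mRNA. Differently numbered libraries gave from -0.036 to -0.0063 in RPF and from -0.110 to 0.100 in mRNA. The libraries known to share a lysate gave only -0.067 to 0.094, so this measure cannot decide whether the numbers are pairs. In the main test they were not taken as pairs, and a replicate block was among the alternatives. Named genes were list members called in RPF or TE, the genes beside KISS1 on chromosome 1, those next to it in the RPF order (5 on each side where present), and the 5 most like it in profile. TAC3 and PSG1 were named after their values had been seen. Members not called could add up to 4 names per list under the rule, and few of these are given. Some genes that the rule picks are not reported here, although list counts include them.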

Additional observations from a re-analysis of the deposited data

How the results depend on the processing

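Settings other than the main one left KISS1 higher in Sen in mRNA, RPF and TE in all 13 alternatives of each. Its log2 fold change ranged from 5.10 to 5.35 in mRNA, from 5.51 to 5.93 in RPF and from 0.36 to 0.73 in TE. All 13 values stayed within 1 pooled SD of the main value in RPF and TE, and 12 of 13 did in mRNA, where counting CDS reads alone gave 5.35. With a replicate block KISS1 was at 5.19 in mRNA and 5.69 in RPF, and with no replicate block at 0.55 in TE. The rank of KISS1 by RPF fold change was 9 when every gene with a read was kept and 5 without the shallow lysates Pro 1 and Sen 2, and from 1 to 8 when single lysates were left out, with rank 1 without Pro 2 or Sen 1 and rank 8 without Pro 3. These ranks under other settings were computed after seeing the data. With no correction for length its rank by RPF level in Sen was 302, and it took 0.0351% of all assigned Ribo-seq reads in Sen, against 0.0544% of CDS reads. Genes called in RPF numbered 4088 in the main test, 1164 with DESeq2, 2336 with the replicate block and from 2681 (without Sen 1) to 4555 (without Pro 1) when 1 lysate was left out. Genes called in TE numbered 700 in the main test, 79 with DESeq2, 440 with at least 1 read, 1342 with no replicate block, 1197 without Pro 1 and Sen 2, and from 134 (without Pro 2) to 1154 (without Pro 1) when 1 lysate was left out. DESeq2 gave no adjusted p to 6809 of the 7473 genes in TE. With library totals in place of TMM, the share of calls that were upwards fell from 49.8% to 40.4% in mRNA and from 50.5% to 39.5% in RPF. Without Pro 1 it was 38.1% in TE, without Sen 2 61.7%, against 52.1% in the main test. Of the named genes called, 42 of 45 kept their call in every setting in mRNA, 25 of 47 in RPF and 0 of 6 in TE, and DESeq2 removed the most, 23. The replicate block removed the RPF calls of BRMS1, EED, IRF2BPL, MAPK3, MBTPS1, MED23, PPP1R15B, PRKCA, PRKCD, STC2 and YY1. SOX13 mRNA, not called in the main test, ranged from -0.0039 to 0.27 when single lysates were left out. It passed the threshold in 1 of its 13 alternatives. The cause of these changes was not tested. Depth limits the Pro side most, where KISS1 had 27 footprints in all, 0 of them in Pro 1.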
